A study of Mus musculus with 22 samples.

Results

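The Hox genes of the 4 mouse Hox clusters were read across the colon libraries as markers of position along the gut. Members were the rows whose symbol is Hox followed by a cluster letter, a to d, and a paralog number, which gave 39 of 46078 genes. They were 11 Hoxa, 10 Hoxb, 9 Hoxc and 9 Hoxd genes, and all 39 had at least 1 count. Paralog groups 1 to 8 are called proximal here (23 genes) and groups 9 to 13 distal (16 genes). On GRCm38 the Hoxa genes lie at chr6:52155590-52260880, the Hoxb genes at chr11:96194316-96368256, the Hoxc genes at chr15:102921103-103036852 and the Hoxd genes at chr2:74668310-74765142.

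RNA was sequenced from tissue labelled distal colon of 22 mice, with 1 library per mouse. The control group was C57BL/6, aged 14 weeks (8 mice, 4 males and 4 females). Winnie mice, aged 14 weeks (7 mice, 3 males and 4 females), bear a missense change in Muc2, which codes for the main gut mucin, and become colitic without further treatment. Winnie-Prolapse mice (7 mice, 4 males and 3 females) bear the same change, had a rectal prolapse and were 18 weeks old, so that age and prolapse cannot be told apart. Every cell of these mice carries the change, and bulk tissue was sequenced, so fewer cells of a type and less RNA per cell cannot be told apart in any value given here.

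Hox genes code for homeodomain transcription factors that give cells their place along the head-to-tail axis. Within a cluster they lie in the order in which they are used, so that the genes at one end act in anterior tissue and those at the other end in posterior tissue. In the adult gut the posterior genes, above all those of group 13, are known to mark the hindgut, and adult epithelium and muscle keep such a pattern. Cdx transcription factors, relatives of the Hox genes, are known to act upstream of many of them, and microRNAs encoded inside the clusters are known to target Hox transcripts.

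Sequence elements of that kind are shown for 2 members whose levels vary between libraries in the results. The promoters are RefSeq windows on GRCm38.p6, from 250 bases before to 50 bases after the start. They cover chr11:96281655-96281954 on the plus strand for Hoxb8 and chr2:74667975-74668274 on the plus strand for Hoxd13. Capitals mark the core of the Cdx motif, TTTATNG, searched on both strands.
Hoxb8 promoter: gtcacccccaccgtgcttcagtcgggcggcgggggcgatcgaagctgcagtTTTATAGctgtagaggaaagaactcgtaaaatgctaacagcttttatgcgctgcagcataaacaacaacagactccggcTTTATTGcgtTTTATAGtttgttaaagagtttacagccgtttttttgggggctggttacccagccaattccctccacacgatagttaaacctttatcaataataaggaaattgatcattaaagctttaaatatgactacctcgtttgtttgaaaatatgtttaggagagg
Hoxd13 promoter: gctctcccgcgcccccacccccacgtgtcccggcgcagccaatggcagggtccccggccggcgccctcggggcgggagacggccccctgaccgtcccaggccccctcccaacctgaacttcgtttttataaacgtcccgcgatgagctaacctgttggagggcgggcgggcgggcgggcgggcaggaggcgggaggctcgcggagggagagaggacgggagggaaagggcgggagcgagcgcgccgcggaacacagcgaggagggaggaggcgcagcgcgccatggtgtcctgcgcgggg
The Hoxb8 window held 3 matches and the Hoxd13 window 0. A RefSeq window was matched by symbol for 22 of the 39 members, some with more than 1 start, and 2 of the 22 held a match, Hoxb8 and Hoxd4, each with 3. Of all 32851 promoter windows of this length, 10.9% held at least 1.

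The microRNA miR-196a-5p is encoded in the Hoxb and Hoxc clusters, and its Hoxb copy lies between Hoxb13 and Hoxb9 at chr11:96265164-96265265, plus strand. Its mature sequence is shown with the seed, bases 2 to 8, in capitals. Beside it stands the best match of its reverse complement in any Hox transcript, which lies in the 3′ untranslated region of Hoxb8 at chr11:96284888-96284909, plus strand, with paired bases in capitals.
miR-196a-5p: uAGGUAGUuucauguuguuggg
Hoxb8 site: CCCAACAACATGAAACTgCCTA
Of 22 bases, 21 paired and 1 was a G to U wobble. The next best match in a Hox transcript paired 15 of 22.

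Depth was alike in the groups, at 24.8 to 36.3 M counts per library, so that 3 counts, the most a gene listed at 0 may hide, equalled 0.0825 to 0.121 CPM (counts per M counts of the library, with M for mega). Single libraries stood apart. In Winnie-Prolapse replicate 6, a female, 6 milk protein genes summed to 187900 CPM, against 58.5 CPM in replicate 5 and 1.88 to 5.72 CPM in each of the other 20 libraries, which lowers the CPM of every other gene in that library. C57BL/6 replicate 7, a female, differed from the other C57BL/6 libraries in part of the posterior Hox genes, as described below. Among 11768 genes with a mean of at least 5 CPM in C57BL/6, this library lay at least 4-fold below the lowest of the other C57BL/6 libraries for 139 genes and at least 4-fold above their highest for 66. The other 7 C57BL/6 libraries, set against the rest in the same way, had 0 to 6 genes below and 0 or 1 above. By the same rule within their own groups, Winnie-Prolapse replicate 3 had 72 of 11990 genes below and 0 above, replicate 1 had 46 below and 0 above, and replicate 6 had 5 below and 45 above. Winnie replicate 5 had 30 of 11567 below and 0 above. None of these was a Hox gene.

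Hox transcripts were dominated by the posterior genes in 21 of the 22 libraries. Distal members held 82.0% to 90.7% of all Hox counts in those 21, and the 4 group 13 genes alone 54.0% to 69.7%. Per kilobase of exon the share of distal members was 81.8% to 90.7%. In C57BL/6 replicate 7 distal members held 56.7% of Hox counts and group 13 genes 16.7%. Summed Hox levels were 1178 ± 148 CPM in C57BL/6 without that library (SD, n = 7). The sum came to 992 ± 118 CPM over the 7 Winnie libraries. It came to 815 ± 138 CPM over the 7 Winnie-Prolapse libraries, with replicate 6 lowest at 537 CPM. The Hoxb cluster gave 46.4% ± 4.50, Hoxa 27.2% ± 2.52, Hoxd 26.4% ± 5.05 and Hoxc 0.0763% ± 0.0373 of Hox counts in the other 7 C57BL/6 libraries (SD, n = 7).

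Levels of different genes were compared per kilobase of merged exon. Hoxb13, the posterior end gene of its cluster, had the highest level in all 3 groups. It reached 210 ± 40.4 CPM per kb in C57BL/6 without replicate 7 (SD, n = 7), 181 ± 13.5 in Winnie (SD, n = 7) and 123 ± 30.7 in Winnie-Prolapse (SD, n = 7). Hoxd13 followed, at 88.8 ± 20.9, 76.5 ± 18.0 and 67.8 ± 19.8 CPM per kb in the same order. Hoxa13 came after it, at 34.8 ± 3.79, 33.4 ± 5.85 and 25.5 ± 7.03 CPM per kb. These 3 genes stood apart from each other by more than their SD in each group. The next genes, Hoxb9 at 23.5 ± 2.11, Hoxa7 at 20.8 ± 2.39, Hoxd10 at 19.8 ± 6.25 and Hoxa10 at 16.4 ± 2.0 CPM per kb in the same 7 C57BL/6 libraries, each differed from the next in this order by less than the larger of the SDs, except Hoxb9 and Hoxa7. The order among them was not the same in the other groups. Hoxc4 was the highest Hoxc gene in C57BL/6, at 0.256 ± 0.155 CPM per kb. Hoxc12, Hoxc13 and Hoxd1 had 0 counts in every C57BL/6 library, which allows up to 3 counts per library.

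**Figure D1:**
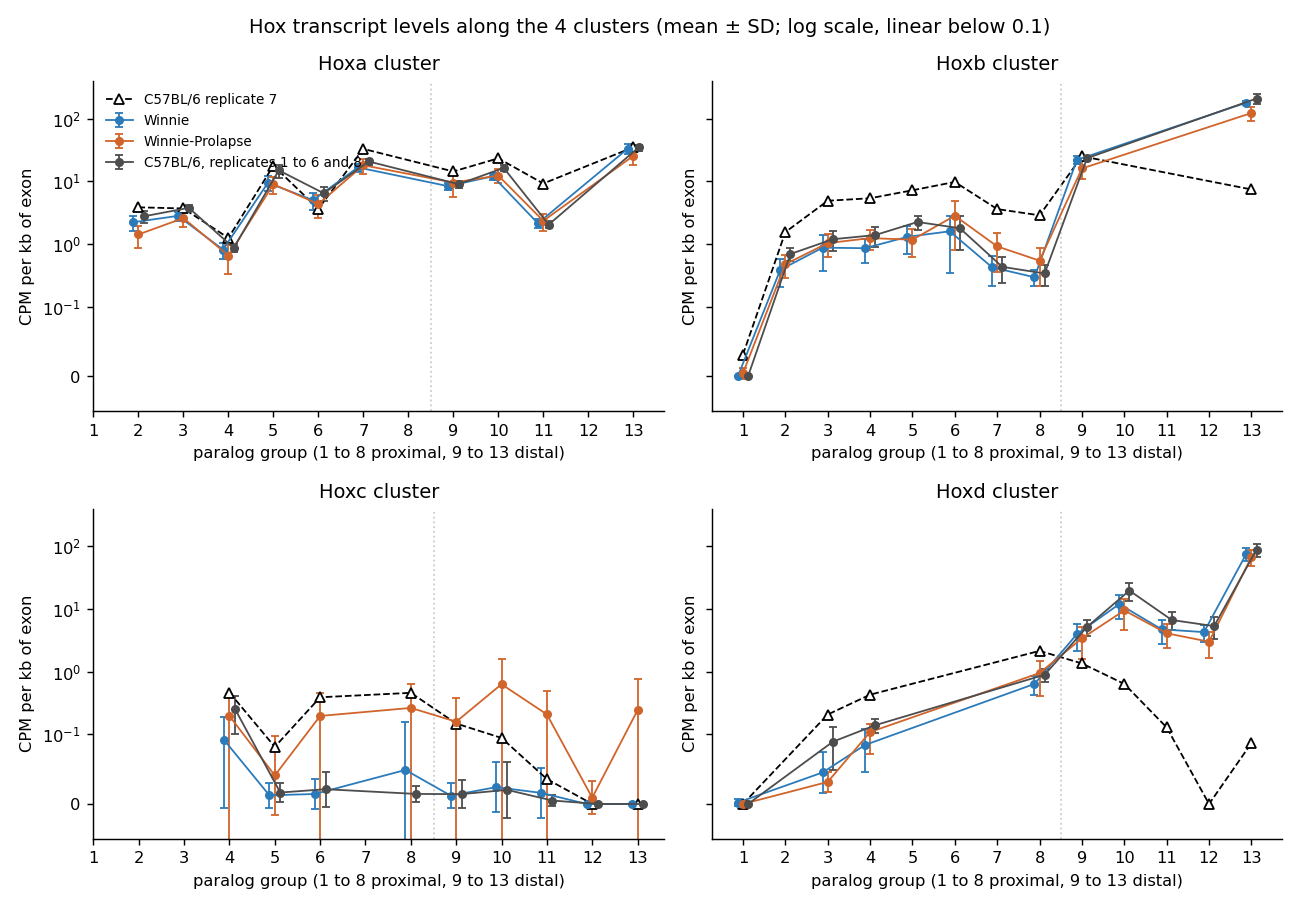
Level of each Hox gene (CPM per kb of exon, log scale that turns linear under 0.1) against paralog group, 1 panel per cluster. Points are group means with SD, with C57BL/6 replicate 7 drawn separately as open triangles. The triangles run above the groups for proximal Hoxb genes and lie under them for Hoxb13 and the distal Hoxd genes.

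The posterior genes of C57BL/6 replicate 7 were not shifted alike: Hoxb13 and all 5 distal Hoxd genes were low, Hoxb9 and Hoxa13 were within range, and the other 3 distal Hoxa genes were high. Hoxb13 had 453 counts (16.4 CPM) there against 10522 to 17359 counts (377 to 612 CPM) in the other 7 C57BL/6 libraries, 23.0-fold under the lowest of them. Hoxd13 had 6 counts (0.217 CPM) against 3860 to 8290 counts (132 to 288 CPM). Hoxd12 had 0 counts, Hoxd11 15, Hoxd10 32 and Hoxd9 80, against lowest values of 205, 366, 469 and 174 counts in the others. The loss ran along the cluster, with the ratio of the lowest other library to this one at 607 for Hoxd13, at least 64.5 for Hoxd12 (against 3 counts), 23.0 for Hoxd11, 13.8 for Hoxd10 and 2.05 for Hoxd9. Hoxa13, at 86.6 CPM, lay inside the range of the others (71.8 to 101 CPM), and so did Hoxb9 at 64.9 CPM (54.9 to 71.8 CPM).

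Proximal genes, above all of Hoxb, were high in the same library. Of 30 members with a mean of at least 10 counts over all libraries, it held the highest C57BL/6 value for 16 and the lowest for 7. The 16 include Hoxc8 and Hoxd4, which reached that mean only with the 36 and 35 counts of this library. Hoxb6 was at 19.2 CPM against 1.88 to 7.56 CPM, Hoxb7 at 5.58 against 0.342 to 1.2 CPM and Hoxb8 at 7.57 against 0.540 to 1.30 CPM. Hoxb4 (13.8 CPM), Hoxb5 (20.1 CPM) and Hoxb3 (20.9 CPM) were each above the other 7 as well. Of the distal Hoxa genes, Hoxa11 was at 21.2 CPM against 4.05 to 5.65 CPM, Hoxa10 at 76.4 against 47.1 to 66.2 CPM and Hoxa9 at 80.4 against 41.1 to 63.6 CPM. Among related genes, Cdx2, a hindgut master regulator, was at 315 CPM there against 2.32 to 60.6 CPM, while its relative Cdx1 was at 300 CPM, inside 263 to 358 CPM. Evx2, which lies beside Hoxd13, was at 0.0362 CPM against 6.25 to 12.3 CPM. Smooth muscle genes summed to 13030 CPM there against 7145 to 9462 CPM, and enteric neuron and glia genes to 139 against 55.9 to 95.3 CPM. Fat genes were also highest there, at 134 against 16.1 to 77.8 CPM, and leukocyte genes lowest, at 63.5 against 128 to 284 CPM. The epithelial gene Krt20 was at 2170 CPM against 443 to 812 CPM, while the epithelial genes together were at 13550 CPM against 11780 to 13120 CPM. The part of these cell types in the result was not tested. None of the 14 Winnie and Winnie-Prolapse libraries had such a profile: their lowest Hoxb13 was 177 CPM and their lowest Hoxd13 111 CPM. The labels name no dissection site within the distal colon, and whether the piece came from another site was not tested. Comparisons of Hox genes with C57BL/6 are therefore given with and without this library, and for the other gene lists the calls that changed without it are named.

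The balance of distal over proximal transcripts was computed within each cluster as the log2 ratio of summed CPM, groups 9 to 13 over groups 1 to 8. For Hoxb, C57BL/6 libraries lay at -0.19 (replicate 7) and from 3.91 to 4.99 (the other 7), Winnie libraries from 4.09 to 6.34 with a median of 4.73, and Winnie-Prolapse libraries from 2.91 to 5.52 with a median of 3.91. The groups overlapped throughout. The Hoxb means were 4.58 ± 0.38 in C57BL/6 without replicate 7 (3.98 ± 1.72 with it), 5.07 ± 0.82 in Winnie and 4.02 ± 1.03 in Winnie-Prolapse (log2 ratio, SD, n = 7 each and 8 with replicate 7).

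For Hoxd the ratio was -0.74 in replicate 7 and 5.72 to 7.11 in the other C57BL/6 libraries, 6.41 to 7.49 in Winnie and 5.60 to 6.56 in Winnie-Prolapse. The Hoxd means were 6.56 ± 0.52 without replicate 7 (5.65 ± 2.62 with it), 6.86 ± 0.38 in Winnie and 6.22 ± 0.36 in Winnie-Prolapse. For Hoxa the ratio was 0.34 to 0.91 in C57BL/6, 0.51 to 1.38 in Winnie and 0.53 to 1.04 in Winnie-Prolapse, so that distal and proximal Hoxa transcripts were of the same order in every library. Replicate 7 was at 0.69, inside the C57BL/6 range.

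The Winnie mean exceeded the C57BL/6 mean by 1.09 for Hoxb and 1.21 for Hoxd with all libraries, and by 0.49 and 0.30 without replicate 7. The Winnie-Prolapse differences were 0.036 for Hoxb and 0.57 for Hoxd with all libraries, and -0.56 and -0.34 without replicate 7. These differences depended on which genes were counted as distal. With groups 10 to 13 as distal and replicate 7 left out, the Winnie difference was 0.0040 for Hoxb and 0.20 for Hoxd, and the Winnie-Prolapse difference -0.35 for Hoxb and 0.063 for Hoxd. With the mean of log2 CPM in place of the summed CPM, the Winnie difference for Hoxd was -0.011 without replicate 7. For Hoxa the differences from C57BL/6 were 0.23 in Winnie and 0.13 in Winnie-Prolapse, about the SD of the libraries.

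**Figure D2:**
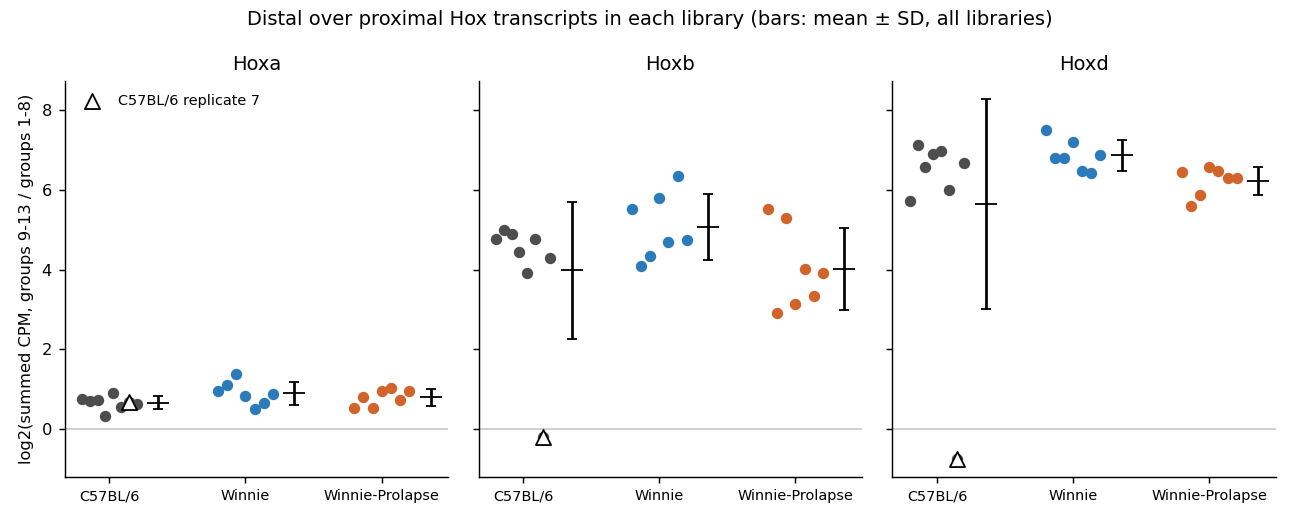
Log2 ratio of summed CPM of distal (groups 9 to 13) over proximal (groups 1 to 8) genes in each library for the Hoxa, Hoxb and Hoxd clusters, with the mean and SD of all libraries of a group beside the points. C57BL/6 replicate 7 (open triangle) lies at -0.19 for Hoxb and -0.74 for Hoxd, under every other library, and among the others for Hoxa.

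Counts were tested with edgeR's quasi-likelihood test with Benjamini-Hochberg adjustment over all genes that passed the filter on low counts. A gene was called at an adjusted p under 0.001 and a change of at least 1.5-fold, and the second limit was the same fold with an adjusted p under 0.05. The filter left 28 members in each comparison with C57BL/6. The 11 left out were Hoxb1, 8 Hoxc genes (all but Hoxc4), Hoxd1 and Hoxd3.

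In Winnie against C57BL/6, 0 of 28 members were called at the first limit, where 0.0925% of all 17289 genes were. DESeq2 also called 0, against 5.44% of genes, and edgeR gave 10 members an unadjusted p under 0.05, as it did 39.9% of all genes. At the second limit 5 members were lower, against 8.53% of all genes lower, and 0 were higher, against 7.42% higher. All 5 were proximal genes, and without C57BL/6 replicate 7 the count was 0 lower (8.14% of genes) and 0 higher (8.16%). Over the 28 members the median log2 fold change was -0.36, with 25 below 0, beside a median of -0.0068 over all genes tested. The 17 proximal members had a median of -0.76 and the 11 distal members of -0.13, which became -0.34 and -0.14 without replicate 7.

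Hoxa5, known for its part in gut and lung mesenchyme, ranged from 19.8 to 37.8 CPM with a median of 28.3 in C57BL/6, and from 12.6 to 25.1 CPM with a median of 15.7 in Winnie. The ranges overlapped. Hoxa5 fell by 0.61 ± 0.17 on the log2 scale (SE), with an edgeR adjusted p of 0.0185. Without replicate 7 the change was -0.57, under the fold limit, with an adjusted p of 0.0261, and over all alternatives the adjusted p ran from 0.0056 to 0.234.

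Hoxb5, which is known for its role in the enteric nervous system, was at 4.28 to 20.1 CPM (median 6.54) in C57BL/6 and 1.67 to 5.55 CPM (median 4.49) in Winnie. It fell by 1.08 ± 0.35, adjusted p 0.0357 in edgeR. Hoxb2, an anterior group gene, was at 1.44 to 5.40 CPM (median 2.74) against 0.374 to 2.20 CPM (median 1.46) in Winnie, a log2 change of -0.99 ± 0.32, adjusted p 0.0318. Hoxb4 was at 1.85 to 13.8 CPM (median 3.62) against 1.01 to 3.33 CPM (median 2.04), a change of -1.08 ± 0.38, adjusted p 0.0486. In each of the 3 Hoxb genes replicate 7 was the highest C57BL/6 library. Without it their log2 changes were -0.73, -0.78 and -0.64 for Hoxb5, Hoxb2 and Hoxb4, and edgeR adjusted p values were 0.0572, 0.0515 and 0.0874. Over the alternatives these ran from 0.0123 to 0.32, from 0.0106 to 0.459 and from 0.0217 to 0.811. Hoxc4 rested on 8 to 36 counts in C57BL/6 and 1 to 24 in Winnie, with a change of -1.53 ± 0.51 and an adjusted p of 0.0374, or 0.0555 without replicate 7 (0.00254 to 0.281 over the alternatives).

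Hoxa10 was the 1 member of 28 whose CPM ranges did not overlap, where 1.64% of all genes did not. It was at 47.1 to 76.4 CPM in C57BL/6 (median 52.5) and 29.2 to 44.3 CPM in Winnie (median 40.6). Its change of -0.44 ± 0.11, adjusted p 0.0106 in edgeR, was below the fold limit, and without replicate 7 the ranges still did not overlap (2.68% of genes). The group 13 genes gave no call in Winnie. Their log2 fold changes were 0.014 ± 0.10 for Hoxa13, 0.049 ± 0.41 for Hoxb13 and 0.054 ± 0.60 for Hoxd13, with edgeR adjusted p values of 0.929, 0.941 and 0.957. Without replicate 7 the SE of Hoxb13 was 0.12 and that of Hoxd13 0.16, at changes of -0.14 and -0.14. All 3 turned below 0 on library size without TMM factors. Hoxc13 had 0 counts in every C57BL/6 and Winnie library.

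**Figure D3:**
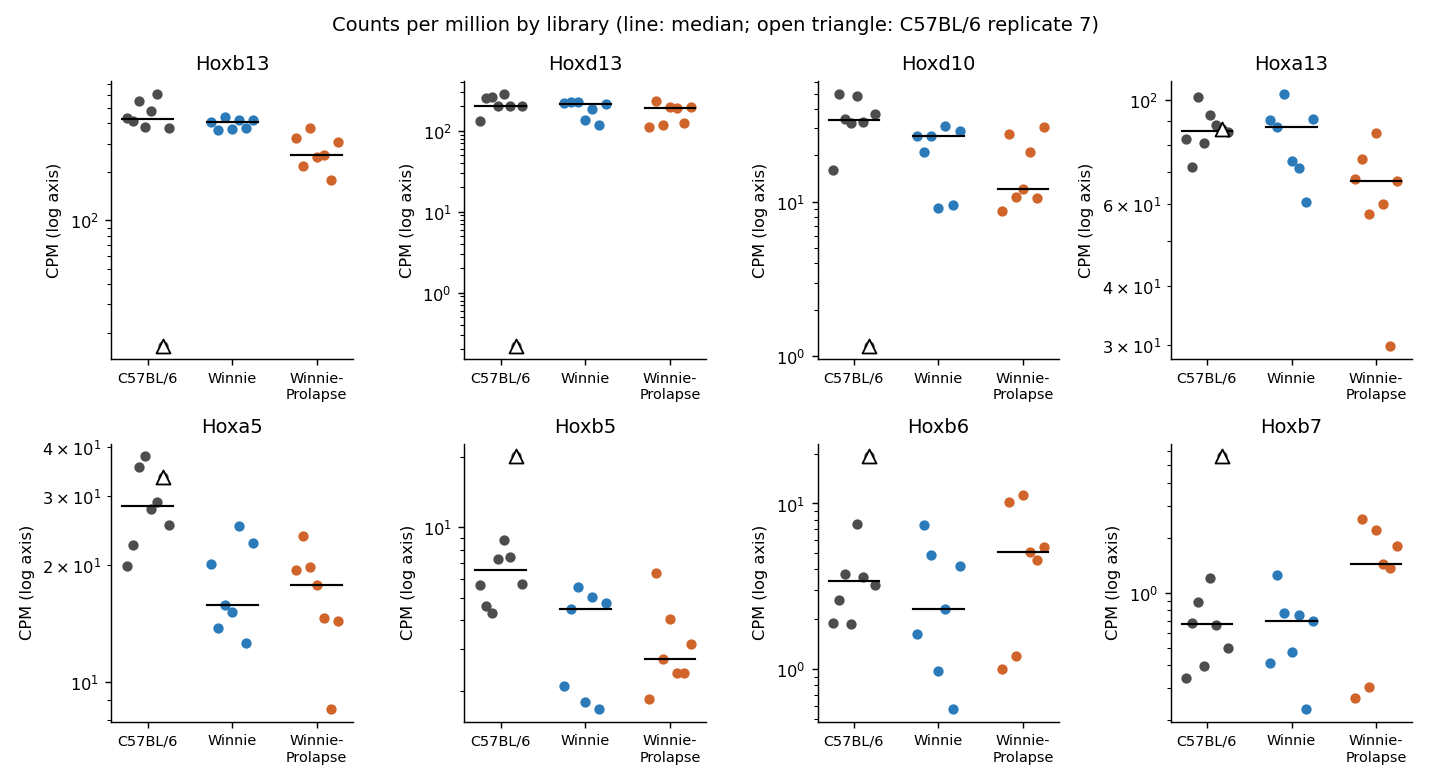
CPM (log axes) of 8 Hox genes in each library, by group, with group medians as lines and C57BL/6 replicate 7 as an open triangle. The triangle lies far under its group for Hoxb13, Hoxd13 and Hoxd10, above it for Hoxb5, Hoxb6 and Hoxb7, and within it for Hoxa13 and Hoxa5.

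In Winnie-Prolapse against C57BL/6 the calls were Hoxa2, Hoxa5 and Hoxb5, all lower and all proximal. At the first limit 0 of 28 were called by edgeR, where 18.3% of 17397 genes were, with 8 members at an unadjusted p under 0.05, as were 58.5% of all genes. DESeq2 called 3 of 36 lower at that limit, against 9.41% of the genes it gave an adjusted p. At the second limit 3 members were lower, against 17.7% of all genes, and 0 higher, against 16.7%. Without C57BL/6 replicate 7, 5 were lower (17.6% of genes) and 1 higher (17.7%). The median log2 change of the 28 was -0.44, with 24 below 0, beside -0.011 over all genes. It was -0.48 for the 17 proximal and -0.43 for the 11 distal members, and -0.29 and -0.45 without replicate 7.

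Hoxa2, an anterior group gene, was at 3.40 to 6.85 CPM (median 5.07) in C57BL/6 and 1.29 to 4.14 CPM (median 2.60) in Winnie-Prolapse. It fell by 0.95 ± 0.23 (log2, SE), adjusted p 0.0027, and by 0.87 without replicate 7, adjusted p 0.00512, with 0.000193 to 0.0684 over the alternatives. Hoxa5 was at 8.54 to 23.7 CPM (median 17.7) in Winnie-Prolapse and fell by 0.71 ± 0.17, adjusted p 0.00255, and by 0.67 without replicate 7, adjusted p 0.00477. Its adjusted p over the alternatives was 0.000366 to 0.12, and without C57BL/6 replicate 7 and Winnie-Prolapse replicate 6 its change was -0.56, under the fold limit. Hoxb5 was at 1.84 to 6.37 CPM (median 2.72) and fell by 1.24 ± 0.34, adjusted p 0.00579, and by 0.87 without replicate 7, adjusted p 0.00522, with 0.000753 to 0.236 over the alternatives. The ranges of all 3 genes overlapped between the groups. In Winnie and Winnie-Prolapse, which were compared with the same C57BL/6 libraries, Hoxa5 changed by -0.61 and -0.71 and Hoxb5 by -1.08 and -1.24.

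Once replicate 7 was left out, the distal genes Hoxb13 and Hoxd10 were also called lower in Winnie-Prolapse, and Hoxb7 higher. Hoxb13 was at 177 to 375 CPM (median 256) in Winnie-Prolapse and at 377 to 612 CPM (median 433) in the 7 C57BL/6 libraries, without overlap, as for 20.5% of genes. With all libraries the ranges overlapped for each of the 28 members, where 16.0% of genes did not. Hoxb13 then fell by 0.67 ± 0.18, adjusted p 0.00555 in edgeR, while with all 8 C57BL/6 libraries the change was -0.49 ± 0.43, adjusted p 0.355 (0.00555 to 0.902 over the alternatives). Hoxd10, in 8.76 to 30.6 CPM against 16.0 to 50.1 CPM, fell by 0.97 ± 0.29 without replicate 7, adjusted p 0.0108, from -0.79 ± 0.49 and 0.18 with it (0.0108 to 0.76 over the alternatives). Hoxa13 changed by -0.40 ± 0.13, adjusted p 0.0181, under the fold limit, and Hoxd13 by -0.12 ± 0.61, adjusted p 0.877, or -0.31 ± 0.17 and 0.127 without replicate 7. Hoxb7 rose by 1.14 ± 0.44 without replicate 7, adjusted p 0.0404, from 0.18 ± 0.62 and 0.828 with it (0.0404 to 0.959 over the alternatives). With C57BL/6 replicate 7 and Winnie-Prolapse replicate 6 left out, Hoxb13 and Hoxd10 stayed called and Hoxb7 did not, at an adjusted p of 0.0611.

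**Figure D4:**
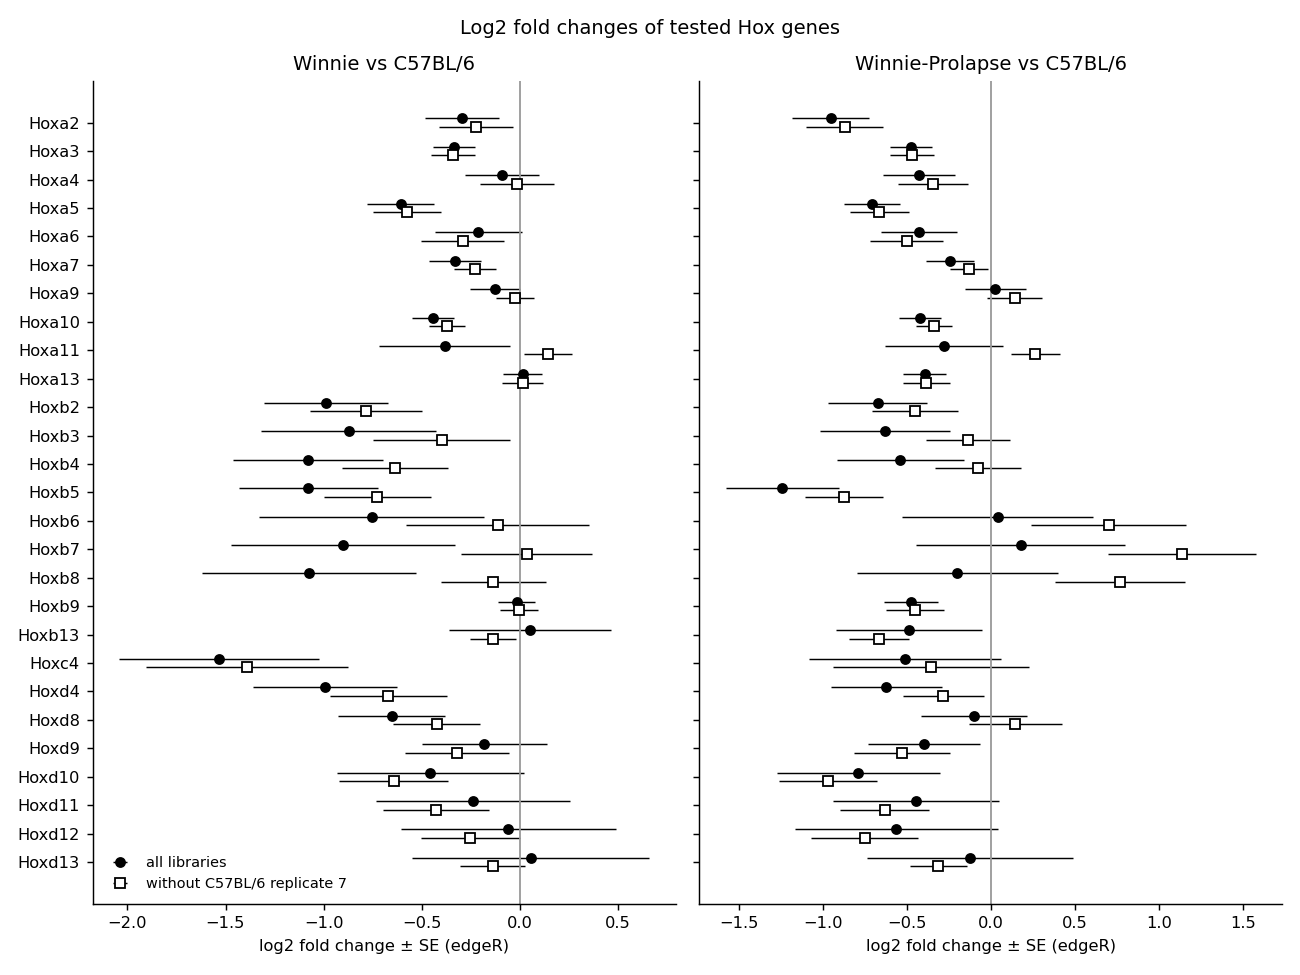
Log2 fold change with SE from edgeR for tested Hox genes, for Winnie (left) and Winnie-Prolapse (right) against C57BL/6, with all libraries (filled) and without C57BL/6 replicate 7 (open). Leaving the library out moved Hoxb genes of groups 2 to 8 upwards and Hoxb13, Hoxd13 and the other distal Hoxd genes downwards with smaller errors.

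Winnie-Prolapse and Winnie were compared without C57BL/6. Of 26 members tested 0 were called at the first limit, where 0% of 17041 genes were, by DESeq2 also 0, against 2.89% of genes, and 6 had an unadjusted p under 0.05 in edgeR, as did 27.8% of all genes. At the second limit 0 were called as well, where 6.99% of genes were, and DESeq2, which tested more genes, called Hoxc6 and Hoxc10 higher of 36 members, against 7.31% of genes higher. The ranges overlapped for all 26, where 0.962% of genes did not overlap. Hoxb13 had the lowest adjusted p, 0.0414, at a change of -0.54 ± 0.15 that is below the fold limit, in 177 to 375 CPM against 364 to 436 CPM in Winnie (median 409). In 6 of 7 Winnie-Prolapse libraries it was under the lowest Winnie library. Hoxb9, the other distal Hoxb gene, changed by -0.46 ± 0.19 (adjusted p 0.131), while the proximal Hoxb7 changed by 1.10 ± 0.46 (adjusted p 0.133) and Hoxb8 by 0.90 ± 0.37 (adjusted p 0.128). Over the Hoxb members, 6 of 7 proximal genes were above 0 with a median of 0.56, and both distal genes were below 0, at -0.54 and -0.46.

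The effect of sex on the group difference was tested as an interaction at an adjusted p under 0.05. In Winnie against C57BL/6, 0 of 29 members passed, where 0.247% of 18233 genes did, and 6 had an unadjusted p under 0.05 in edgeR, as did 18.2% of all genes; the lowest adjusted p was 0.16, for Hoxb6. Without C57BL/6 replicate 7, one of the C57BL/6 females, 0 of 29 passed, where 1.37% of 18152 genes did. In that edgeR fit 3 had an unadjusted p under 0.05, as did 20.65% of all genes. Its lowest adjusted p for a member was 0.12, for Hoxa2. In Winnie-Prolapse against C57BL/6, 0 of 34 passed, where 0% of 18722 genes did, and 3 had an unadjusted p under 0.05, as did 4.40% of all genes. Without C57BL/6 replicate 7 it was 0 of 34, where 0% of 18634 genes passed. In that edgeR fit 2 members had an unadjusted p under 0.05, as did 4.42% of all genes. No other tool was run for the interaction.

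Within the Winnie and Winnie-Prolapse groups some libraries shared a low or a high level over many members. Winnie replicate 6 held the lowest value of its group for 14 of 30 members and Winnie replicate 4 for 5. Hoxd10 was at 9.05 CPM in replicate 4 and 9.52 CPM in replicate 6 against 21.2 to 30.8 CPM in the other 5 Winnie libraries, and Hoxd13 at 137 and 119 CPM against 186 to 226 CPM. Hoxb6 was at 0.980 and 0.575 CPM in these 2 libraries and at 1.62 to 7.40 CPM in the other 5. These 2 libraries, both female, also had the lowest sums over 10 smooth muscle genes in the group, 2992 and 2114 CPM against 3414 to 8005 CPM, and the part of muscle in the result was not tested.

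In Winnie-Prolapse, replicates 1 and 3, both male, had low Hoxb6 (1.01 and 1.21 CPM against 4.55 to 11.2 CPM in the other 5) and low Hoxb7 (0.266 and 0.303 CPM against 1.37 to 2.52 CPM). They had the highest Hoxb13, 326 and 375 CPM, against 177 to 306 CPM, and the highest Hoxb balance, 5.52 and 5.30. Their Hoxd13 was the lowest of the group, 111 and 119 CPM against 126 to 235 CPM. A sum over 10 squamous epithelium genes, among them the keratins Krt5, Krt14, Krt1 and Krt10, was 6.07 and 3.84 CPM in these 2 libraries and 354 to 3574 CPM in the other 5. Replicate 1 held the lowest value of the group for 15 of 30 members and replicate 6, the library with milk protein genes, for 10. Winnie-Prolapse replicate 2, a male, held the highest value of its group for 15 of 30 members, among them Hoxd13 at 235 CPM and Hoxa9 at 93.8 CPM. The tallies of replicates 1 and 2 both include Hoxc8 and Hoxc10. Hoxc10 reached a mean of 10 counts only through Winnie-Prolapse libraries, and Hoxc8 only with these, C57BL/6 replicate 7 and Winnie replicate 1.

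The Hoxc cluster was close to silent in Winnie and in C57BL/6 without replicate 7, at up to 0.131% and 0.138% of Hox counts per library. It was read in C57BL/6 replicate 7 and in single Winnie-Prolapse libraries. In C57BL/6 replicate 7 it held 0.696%, with 33 counts of Hoxc4, 26 of Hoxc6, 36 of Hoxc8 and 10 of Hoxc9. That share lay above Winnie-Prolapse replicates 5 (0.446%) and 6 (0.247%) and under replicates 2 (1.82%) and 4 (0.875%). Hoxc13, which is known for its role in hair and nails, had 108 counts in Winnie-Prolapse replicate 2, 16 in replicate 5, 4 in replicate 4 and 1 in replicate 6, and 0 in the other 18 libraries of the study. Hoxc10 had 153, 63, 37 and 5 counts in replicates 2, 4, 5 and 6 and 0 in replicates 1, 3 and 7, against 0 to 6 counts in C57BL/6 and 0 to 5 in Winnie. Hoxc11 had 43, 30, 15 and 2 counts in the same 4 libraries, against 0 to 2 in C57BL/6 and 0 to 5 in Winnie. Hoxc8 had 85, 47, 14 and 12 counts there, against at most 2 in the 7 C57BL/6 libraries, 36 in C57BL/6 replicate 7 and 30 in Winnie replicate 1. Hoxc12 had 2 counts, in Winnie-Prolapse replicate 5 alone.

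Within Winnie-Prolapse, the 4 libraries with Hoxc10 to Hoxc13 counts were among the 5 with squamous genes, at 2553, 2138, 354 and 650 CPM in replicates 2, 4, 5 and 6. Counts as low as the 5 of Hoxc10 in replicate 6 also stood in libraries of other groups with squamous sums near the lowest, with 6 Hoxc10 counts in C57BL/6 replicate 2 (5.85 CPM) and 5 in Winnie replicate 3 (3.09 CPM). Replicate 7 had the highest squamous sum, 3574 CPM, and 0 counts of Hoxc6, Hoxc8, Hoxc9, Hoxc10, Hoxc11 and Hoxc13, with 5 of Hoxc4. In C57BL/6 the squamous sum was 4.29 to 6.25 CPM, and in Winnie 3.09 to 5.62 CPM in 6 libraries and 56.3 CPM in replicate 2. The part of squamous tissue in the Hoxc counts was not tested. The low-count filter left out these genes in the comparisons with C57BL/6. With no filter edgeR called Hoxc10, Hoxc11 and Hoxc13 higher and Hoxd3 lower beside Hoxa2, Hoxa5 and Hoxb5, which makes 3 higher and 4 lower of 38 members, where 13.5% of all genes were higher and 11.8% lower.

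**Figure D5:**
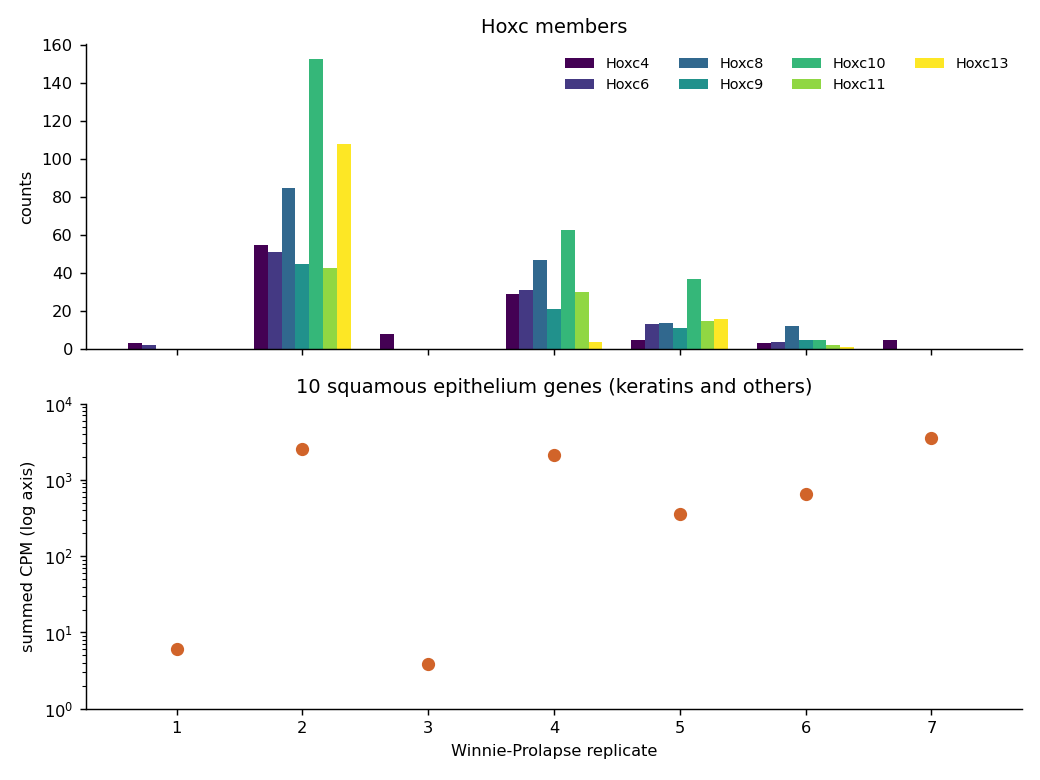
Counts of 7 Hoxc genes (top) and summed CPM of 10 squamous epithelium genes on a log axis (bottom) in the 7 Winnie-Prolapse libraries. Hoxc10 counts stand in replicates 2, 4, 5 and 6, up to 153, and replicate 7 has the highest squamous sum with 5 Hoxc4 counts and 0 of the other 6 Hoxc genes drawn.

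Hox proteins bind DNA together with cofactors of the Pbx, Meis and Pknox families, and of 9 cofactor genes all were tested. In Winnie 3 were lower at the second limit, Meis1, Meis2 and Meis3, where 8.53% of all genes were. In that comparison 0 were higher (7.42% of genes), and 0 were called at the first limit (0.0925%). In Winnie-Prolapse 5 were lower at the second limit, among them Pbx4, Meis1, Meis2 and Meis3, where 17.7% of all genes were. There 0 were higher (16.7%), and 3 of the 5 passed the first limit, as did 18.3% of genes in either direction. Meis3 was at 11.4 to 17.2 CPM in C57BL/6 (median 15.2), 3.03 to 10.1 CPM in Winnie (median 4.28) and 3.18 to 5.36 CPM in Winnie-Prolapse (median 3.50). It fell by 1.22 ± 0.25 in Winnie (adjusted p 0.00548) and by 1.86 ± 0.14 in Winnie-Prolapse (adjusted p 1.42e-07), below every C57BL/6 library in both groups. Without C57BL/6 replicate 7 the values of Meis3 were -1.22 and -1.85, both called, and Meis1 changed by -0.66 in Winnie with an adjusted p of 0.0723, not called. Smooth muscle genes were lower too, with sums of 7145 to 13030 CPM in C57BL/6, 2114 to 8005 in Winnie and 1456 to 3418 in Winnie-Prolapse. Of these 10 genes 8 were lower at the second limit in Winnie and all 10 at the first in Winnie-Prolapse, and without C57BL/6 replicate 7 the count in Winnie was 5, without Actg2, Myh11 and Smtn. Their part in the cofactor and Hox results was not tested.

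Of 20 Polycomb and Trithorax genes, which keep Hox clusters shut or open, all were tested. Cbx6 was the 1 lower in Winnie at the second limit, where 8.53% of all genes were. It fell by 0.62 ± 0.14 (adjusted p 0.00822), and by 0.51 without C57BL/6 replicate 7, under the fold limit. In Winnie-Prolapse 2 of the 20 were lower and 1 higher at the second limit, where 17.7% of all genes were lower and 16.7% higher. Ezh1 fell by 0.64 ± 0.09 and Pcgf2 by 0.60 ± 0.15, and Phc2 rose by 0.64 ± 0.08. Their edgeR adjusted p values were 2.69e-05, 0.00423 and 9.4e-06. These 3 kept their calls without C57BL/6 replicate 7, and Cbx2 was then called lower as well, at -0.61 ± 0.21 (adjusted p 0.0242) from -0.55 with it. Of the ParaHox and colon identity list of 10 genes, 5 were tested. Cdx1, at 263 to 358, 276 to 352 and 242 to 338 CPM, had log2 fold changes of 0.10 ± 0.086 and -0.0058 ± 0.088. Cdx2 spread over 2.32 to 315, 10.2 to 108 and 4.38 to 37.0 CPM, and its change in Winnie turned from -0.47 ± 0.81 to 0.83 ± 0.60 without replicate 7. Insl5, a hormone of distal colon L cells, fell in Winnie-Prolapse by 1.0 ± 0.35 (adjusted p 0.0259), or by 1.11 without replicate 7, in 10.9 to 43.6 CPM against 18.7 to 71.8 CPM. Hnf4a, a regulator of gut epithelium, was the 1 gene of this list lower in Winnie-Prolapse than in Winnie, by 0.60 ± 0.15 (adjusted p 0.0295). In that comparison 6.99% of all genes were called in either direction.

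Of 12 noncoding RNAs listed from inside the clusters, 11 were in the table. In Winnie 5 of 7 tested were lower at the second limit, Hottip, Hoxa11os, Hoxb5os, Hoxb3os and Hotairm1, where 8.53% of all genes were. In Winnie-Prolapse 5 of 6 tested were lower (17.7% of all genes), with Hoxaas3 in place of Hotairm1, and 0 were higher in either group. Of the 5, 3 were lower at the first limit, where 18.3% of genes were called in either direction. Each of these calls held without C57BL/6 replicate 7, where Hottip was at -0.74 and -1.67. Hottip, known as a regulator of the posterior Hoxa genes and next to Hoxa13, was at 19.1 to 49.1 CPM in C57BL/6 (median 37.5), 14.8 to 27.6 in Winnie (median 20.9) and 3.14 to 16.4 in Winnie-Prolapse (median 13.1). It fell by 0.65 ± 0.19 in Winnie (adjusted p 0.0211) and by 1.59 ± 0.27 in Winnie-Prolapse (adjusted p 0.000212), where all 7 libraries were below the lowest C57BL/6 library. It was also the 1 cluster RNA lower in Winnie-Prolapse than in Winnie, by 0.94 ± 0.26 (adjusted p 0.039), where 6.99% of all genes were called. Hoxa13 itself had log2 fold changes of 0.014, -0.40 and -0.40 in these 3 comparisons.

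Hoxa11os, antisense to Hoxa11, was at 110 to 282, 69.3 to 188 and 26.6 to 87.5 CPM, and fell by 0.84 ± 0.21 in Winnie (adjusted p 0.0114) and by 1.58 ± 0.20 in Winnie-Prolapse (adjusted p 1.43e-05). Hoxa11 itself was at 4.05 to 5.65 CPM in the 7 C57BL/6 libraries, 3.85 to 5.86 in Winnie and 3.67 to 7.97 in Winnie-Prolapse, without a call. Hoxb5os, which overlaps Hoxb5 and Hoxb6 on the opposite strand, fell by 1.22 ± 0.27 (adjusted p 0.00727) and 2.20 ± 0.31 (adjusted p 3.73e-05). The strand setting of the counting was not stated, so reads of these overlapping pairs could be shared, and 14 of the 39 members overlap a gene on the opposite strand and 15 one on the same strand in GENCODE. Reads over the hairpin of Mir196a-1, which are not the mature microRNA, were 185 to 343 counts in C57BL/6, 117 to 354 in Winnie and 51 to 173 in Winnie-Prolapse, and fell by 1.18 ± 0.17 in Winnie-Prolapse (adjusted p 4.29e-05) while Hoxb8 changed by -0.20 ± 0.60 (adjusted p 0.794), or by 0.77 ± 0.39 (adjusted p 0.107) without replicate 7. The hairpin row was chosen after its values were seen.

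Of 10 protein-coding neighbours of the clusters all were tested and 0 were called in Winnie at either limit, while without C57BL/6 replicate 7 Ttll6 was lower there by 0.69 ± 0.20 (adjusted p 0.0212), from -0.56 with it. In Winnie-Prolapse Lnp, beside the Hoxd cluster, and Skap2, beside Hoxa, rose by 0.66 ± 0.12 and 0.59 ± 0.10 with adjusted p values of 0.000422 and 0.000133, and Skap2 was under the fold limit without C57BL/6 replicate 7, at 0.55. Ttll6, beside Hoxb13, fell by 1.58 ± 0.24 with an adjusted p of 7.1e-05. These 2 higher and 1 lower of 10 stood beside 16.7% of all genes higher and 17.7% lower in Winnie-Prolapse at the second limit. In Winnie those shares of all genes were 7.42% and 8.53%. Without C57BL/6 replicate 7 Lnp and Ttll6 kept their calls. Evx1, beside Hoxa13, was then called higher at 1.24 ± 0.36 (adjusted p 0.00877), from 0.44 ± 0.53 with it. In the other cell type lists, 9 of 9 enteric neuron and glia genes were lower in Winnie and 7 in Winnie-Prolapse at the second limit, with sums of 55.9 to 139 CPM in C57BL/6, 17.4 to 64.2 in Winnie and 23.2 to 54.8 in Winnie-Prolapse. The 54.8 CPM was in Winnie-Prolapse replicate 6, the library with milk protein genes, where Sox10 alone was at 33.7 CPM. In the other Winnie-Prolapse libraries Sox10 was at 0.621 to 1.27 CPM. Sox10 lost its call in Winnie without C57BL/6 replicate 7. Of 6 fibroblast genes 2 were lower in Winnie and 4 higher in Winnie-Prolapse, and of 6 leukocyte genes 3 and 5 were higher. Of 8 epithelial genes 1, Krt20, was higher in each, with sums of 11780 to 13550, 11960 to 16500 and 9373 to 17160 CPM, so epithelium was read at a high level in every library. Of the fat genes 0 of 5 tested were called in Winnie and 2 of 4 were lower in Winnie-Prolapse, Fabp4 only with C57BL/6 replicate 7 included. Squamous genes were higher for 1 of 3 tested in Winnie and 5 of 5 in Winnie-Prolapse, and milk protein genes for 0 of 4 and 4 of 4.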

How the data were processed

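The authors selected poly(A) RNA, made stranded libraries and deposited raw counts per gene for the 22 libraries. The submitters' processing notes name GRCm38, STAR and featureCounts. The annotation release and the strand setting are not given in the sources used here. CPM values are the deposited counts over library totals. Counts were tested with edgeR 4.0.16 (R 4.3.3) by the quasi-likelihood test with TMM factors and filterByExpr, each comparison on its own 2 groups without covariates, adjusted over all genes tested. Alternatives used limma 3.58.1 (voom), DESeq2 1.42.0, other filters, scalings and subsets, and leaving out each library. Tables were made in Python 3.11.15 with pandas 2.3.3. The tests were tested on simulated data.

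The members, lists and tests were chosen with earlier results of these data known. All 39 members were accounted for, and full values were given for members called in a comparison, those of group 13 and the highest per kilobase of each cluster. The rule allowed, of every other list, up to 3 genes with the highest mean CPM plus called cofactors and ParaHox genes. Hoxb7, Hoxd10, Hoxa10, Hoxb6 to Hoxb9, the Hoxd and Hoxc genes described by library and the named regulators, RNAs, neighbours and marker genes were chosen after their values were seen. Exon lengths and positions were taken from GENCODE M21 (GRCm38), where all 39 members were found by Ensembl ID, and sequences from RefSeq tables on GRCm38.p6. Replicates were numbered by accession, which pairs nothing. The limits given for counts of 0 hold for counting error alone, as PCR copies could not be told from molecules. P-values judge the difference between groups against the spread between mice within groups. Protein sequences were not analysed here, and the values of a few genes are not reported here.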

Additional observations from a re-analysis of the deposited data

Results flagged for a closer look

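In each group, the highest and lowest library of 30 Hox genes with a mean of at least 10 counts and of the 3 balance ratios were compared with the spread of the group, 99 sets of values in all. A gap larger than Dixon's 95% critical value was found in 22, and 15 of the 22 were in C57BL/6 replicate 7. Chance gives about 1 in 20 for a single set of values. The sets share libraries and the ratios are built from the same genes, so the 22 cannot be judged against that rate. The 15 include Hoxc8 and Hoxd4, which reached the mean of 10 counts only with the 36 and 35 counts of that library. In that library 12 values stood apart on the high side. They were Hoxa7 at 95.0 CPM, Hoxa11 at 21.2 CPM, Hoxb2 at 5.40 CPM, Hoxb3 at 20.9 CPM, Hoxb4 at 13.8 CPM, Hoxb5 at 20.1 CPM, Hoxb6 at 19.2 CPM, Hoxb7 at 5.58 CPM, Hoxb8 at 7.57 CPM, Hoxc8 at 1.30 CPM, Hoxd4 at 1.27 CPM and Hoxd8 at 5.91 CPM. On the low side stood Hoxb13 at 16.4 CPM and the log2 distal over proximal ratios of Hoxb at -0.19 and of Hoxd at -0.74.

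In Winnie, Hoxa10 was apart on the low side in replicate 6 at 29.2 CPM, and on the high side stood Hoxc4 in replicate 5 at 0.787 CPM, Hoxc8 in replicate 1 at 0.825 CPM and Hoxc10 in replicate 3 at 0.193 CPM. In Winnie-Prolapse the gaps were all on the high side in replicate 2, for Hoxa4 at 2.10 CPM, Hoxc10 at 4.95 CPM and Hoxd8 at 5.69 CPM. Hoxc10 reached the mean of 10 counts only through Winnie-Prolapse libraries. Hoxc8 reached it only with these libraries and the counts of C57BL/6 replicate 7 (36) and Winnie replicate 1 (30). Hoxd4 reached it only with the 35 counts of C57BL/6 replicate 7. The place of Hoxc8, Hoxc10 and Hoxd4 among the 30 genes thus rests on the libraries where they were high. Nothing is drawn from their gaps, which are part of the 22.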

How the results depend on the processing

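At an adjusted p under 0.001, 0 Hox genes were called in Winnie-Prolapse against Winnie under every alternative. Against C57BL/6 the counts at that limit rose from 0 when the limit was an adjusted p under 0.05, to 5 in Winnie and 3 in Winnie-Prolapse, and with DESeq2 in Winnie-Prolapse, to 3. Leaving out single libraries gave 0 to 0 in Winnie and 0 to 2 in Winnie-Prolapse. At an adjusted p under 0.05 in Winnie the 5 calls became 3 with no filter, all lower, beside 1388 lower of 29288 genes. They became 2 in males alone, where 2071 of 17574 genes were higher and 1885 lower. In females alone there were 0, where 1 of 17260 genes was called in all, and leaving out single libraries gave 0 to 5. There were 0 without C57BL/6 replicate 7, Winnie replicate 2 or Winnie replicate 4, 1 without Winnie replicate 1 or 6, 2 without C57BL/6 replicate 6 or Winnie replicate 3 or 7, and 3 without C57BL/6 replicate 1, 4 or 5. In Winnie-Prolapse the 3 calls became 7 with no filter and with DESeq2, 3 higher and 4 lower in each, beside 3893 higher and 3608 lower of 24191 genes with DESeq2. They became 7 in females alone, all lower, of 30 members, beside 2352 lower of 17562 genes, 1 in males alone, lower, beside 1945 lower of 17394, and 3 to 6 leaving out single libraries, with 6 without C57BL/6 replicate 7 and 5 without Winnie-Prolapse replicate 1. With C57BL/6 replicate 7 and Winnie-Prolapse replicate 6 both left out, an alternative chosen after seeing the data, there were 4. Against Winnie, the 0 calls became 1 with no filter, higher, beside 960 higher of 29471 genes. With DESeq2 they became 2, both higher, beside 1626 higher of 22256 genes. They became 4 of 26 in females alone (1 higher and 3 lower, beside 1406 higher and 1086 lower of 17383 genes, a like share). Leaving out single libraries gave 0 to 1, with 1 without Winnie-Prolapse replicate 1 or 3. The Hoxa balance of Winnie-Prolapse over C57BL/6 turned from 0.13 to -0.14 with groups 10 to 13 as distal, and with C57BL/6 replicate 7 also left out, chosen after seeing the data, to -0.15, or to 0.30 with the mean of log2 CPM. The Hoxb balance of Winnie-Prolapse, 0.036, was -0.015 with groups 4 to 8 as proximal, -0.031 per kilobase and -0.12 with the mean of log2 CPM. The interaction gave 0 Hox calls under its alternatives, among them leaving out C57BL/6 replicate 7, added after seeing the data, where the calls over all genes in Winnie went from 45 to 248.

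No change called with all libraries turned sign under the alternatives. Hoxb7 in Winnie-Prolapse against C57BL/6, called higher without C57BL/6 replicate 7 at 1.14, ran from -0.20 to that value over the alternatives. In Winnie, Hoxa13 went from 0.014 to -0.062 without TMM factors, -0.032 with at least 10 counts in every library, -0.13 in females alone and -0.026 to 0.064 leaving out single libraries. Hoxb13 went from 0.049 to -0.030 without TMM factors, -0.12 in males alone and -0.14 to 0.16 leaving out single libraries. Hoxd13 went from 0.054 to -0.023 without TMM factors and -0.14 to 0.15 leaving out single libraries, with -0.0055 without C57BL/6 replicate 1. With limma-voom Hoxb13 was at 0.49 and Hoxd13 at 1.10. The lowest values of both when single libraries were left out were without C57BL/6 replicate 7. In Winnie-Prolapse against C57BL/6, males alone gave 0.14 for Hoxb4 and 0.37 for Hoxc4, and Hoxd13 was at 0.14 in females alone and 0.91 with limma-voom. Against Winnie, males alone gave 0.29 for Hoxa5 and -0.22 for Hoxb2, and females alone 0.079 for Hoxd13. The cause was not tested. No paired analysis was possible because replicates were numbered by accession and share no animal across groups. Low counts limit the Hoxc genes and Hoxd1, Hoxd3, Hoxb1 and Hoxb7.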
